A study of Caenorhabditis elegans with 2 samples.

Results

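The regions described here are the 2430 candidate binding regions whose summits fell inside the piRNA clusters of chromosome IV of Caenorhabditis elegans. They were taken, by summit position in build ce11, from the 30000 regions of the pooled candidate list of a chromatin immunoprecipitation sequencing (ChIP-seq) experiment against UNC-30. The left cluster held 940 of them, with summits from 4506414 to 6999393, and the right cluster 1490, with summits from 13504987 to 17193879. The comparison set was the 3537 candidates on the rest of chromosome IV.

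The experiment consisted of 2 libraries, biological replicates 1 and 2, both of L1 larvae of strain OP395, with genotype unc-119(tm4063) III; wgIs395. The integrated transgene wgIs395 makes UNC-30, a homeodomain transcription factor of GABAergic motor neurons, with GFP and FLAG tags at its C terminus. Whole larvae of both sexes were pooled, so the few cells that make UNC-30 are a small part of the material, and the chromatin was sheared with a microtip sonicator. All values come from this single group, and no second strain, stage or untagged sample was analysed here. With 2 libraries, no exact two-sided test over samples can give a p below 0.5, so all comparisons below are descriptions of positions along the genome, with 95% intervals that cover counting error only.

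piRNAs of nematodes, called 21U-RNAs for their length and the uridine at their 5′ end, bind the Piwi protein PRG-1 and direct the silencing of foreign and selfish sequences in the germ line. Most of their genes are tiny, separately transcribed units packed into the clusters of chromosome IV, in introns and between protein-coding genes. Many carry an upstream element with the core CTGTTTCA, known as the Ruby motif, and need SNPC-4 and PRDE-1 for transcription. UNC-30 is known for its role in neurons, whereas piRNAs are made in the germ line, which in newly hatched L1 larvae consists of the primordial germ cells.

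Sequences of 6 piRNA genes next to strong candidates are shown first, because they let a reader see what a piRNA gene there looks like; 59.3% of cluster candidates had no piRNA 5′ end within 100 bp. The 6 were picked, 4 with and 2 without the upstream motif, from the 15 piRNA genes whose 5′ end lay within 100 bp of 1 of the 10 strongest cluster candidates that have such a gene, and 7 of those 15 carried the motif. In each sequence the capitals mark the 21-base piRNA gene, and also CTGTTTCA where it was found on the same strand in the 70 bp upstream. All were read from the RefSeq sequence of WBcel235 (the same build as ce11), 5′ to 3′ on the gene's own strand.
21ur-13201 (chrIV:14050411-14050485, minus strand): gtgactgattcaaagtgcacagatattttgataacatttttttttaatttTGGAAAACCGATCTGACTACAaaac
21ur-9509 (chrIV:5140423-5140497, minus strand): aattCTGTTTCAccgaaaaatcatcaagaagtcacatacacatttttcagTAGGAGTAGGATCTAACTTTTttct
21ur-12533 (chrIV:14489805-14489879, minus strand): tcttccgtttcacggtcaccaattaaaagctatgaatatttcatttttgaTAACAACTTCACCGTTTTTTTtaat
21ur-14537 (chrIV:6656814-6656888, plus strand): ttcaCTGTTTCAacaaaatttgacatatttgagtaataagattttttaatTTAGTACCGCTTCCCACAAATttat
21ur-2949 (chrIV:14008835-14008908, plus strand): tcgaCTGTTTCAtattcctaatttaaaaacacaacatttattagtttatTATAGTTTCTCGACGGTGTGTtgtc
21ur-2904 (chrIV:16124038-16124113, minus strand): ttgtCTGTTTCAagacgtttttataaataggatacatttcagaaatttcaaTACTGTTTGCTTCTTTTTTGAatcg

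The motif ended 38 bp before the 5′ end of 21ur-9509 and 21ur-14537, 37 bp before that of 21ur-2949 and 39 bp before that of 21ur-2904. 21ur-13201 and 21ur-12533 had no exact CTGTTTCA in the 70 bp upstream. 21ur-13201 lay 4 bp from the summit of a candidate with signal 37.2 (rank 148 of 30000), and 21ur-9509 lay 21 bp from a summit with signal 35.1 (rank 189). The other 4 belonged to weaker candidates, with pooled ranks of 384, 499, 574 and 613.

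The summits of 3 candidates that passed the authors' reproducibility threshold show the sequence under 3 of the strongest members. Each is given with 50 bp to each side, on the plus strand, with CTGTTTCA or TAATCC (the core recognised by Pitx and other bicoid-type homeodomains, among them that of UNC-30) in capitals where present on either strand.
mir-52 locus, rank 22 (chrIV:14034121-14034221, plus strand): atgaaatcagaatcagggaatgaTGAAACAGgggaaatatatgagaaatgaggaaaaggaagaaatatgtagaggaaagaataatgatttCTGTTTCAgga
dld-1 promoter, rank 17 (chrIV:14464267-14464367, plus strand): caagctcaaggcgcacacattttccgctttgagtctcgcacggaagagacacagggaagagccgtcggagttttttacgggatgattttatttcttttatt
msp-55 vicinity, rank 44 (chrIV:5054440-5054540, plus strand): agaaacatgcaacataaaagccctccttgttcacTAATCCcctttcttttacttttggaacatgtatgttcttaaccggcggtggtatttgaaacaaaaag

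The label of the clusters was checked against the Ensembl annotation of WBcel235. Of 15363 annotated piRNA genes, 14204 (92.5%) had their 5′ end in the clusters, 2816 of them in the left and 11388 in the right, against 510 (3.32%) on the rest of chromosome IV. That was 2291 piRNA genes per Mb in the clusters against 45.2 per Mb on the rest of the chromosome. The right cluster, with 3078 per Mb, was denser than the left, with 1126 per Mb. The first base was T in 96.2% of the cluster genes and 96.9% of those on the rest of the chromosome. CTGTTTCA stood in the 70 bp upstream, on the same strand, in 4956 cluster genes (34.9%), with a median of 38 bp (quartiles 37 and 39) between motif and 5′ end. The bounds of the clusters are round positions of the rule, and the signals of the candidates next to them overlap. Just inside the 4 bounds, in order along the chromosome, the nearest candidates had signals of 17.9, 19.9, 12.6 and 15.1, and just outside them 14.9, 11.6, 16.2 and 20.7.

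Candidate regions were denser in the clusters than on the rest of the chromosome in all 3 lists. The pooled list held 391.9 candidates per Mb in the clusters (interval 376.5 to 407.8), against 313.2 on the rest of chromosome IV (302.9 to 323.7), a ratio of 1.25. Replicate 1's own list gave 363.7 against 308.9 per Mb, a ratio of 1.18. Replicate 2's gave 381.9 against 313.7 per Mb, a ratio of 1.22. The right cluster stood out more than the left, with ratios of 1.29, 1.25 and 1.27 in the pooled, replicate 1 and replicate 2 lists for the right and 1.201, 1.08 and 1.15 for the left. In replicate 1 the interval of the left cluster (309.8 to 355.4 per Mb) met that of the rest of the chromosome (298.8 to 319.4). The short right end of the chromosome beyond the right cluster held 449.2 per Mb (375.9 to 532.7, from 132 regions) and 595.6 piRNA genes per Mb. Among the other chromosomes the pooled density ran from 254.3 per Mb on II to 323.6 on III.

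The higher density was found along most of both clusters. In bins of 100 kb the pooled list had a median of 39 candidates in the 62 cluster bins (range 17 to 62), against 30.5 in the 112 bins of the rest of chromosome IV (15 to 52). Of the cluster bins, 53 lay above the median of the rest (20 of 25 in the left cluster, 33 of 37 in the right), and 6 lay above the highest bin of the rest. At the start of the left cluster, successive bins held 25, 28 and 30 pooled candidates, all below that median. These bins held 0, 1 and 8 piRNA genes. The fullest bin, chrIV:16000001-16100000 in the right cluster, held 62 pooled candidates, 53 in replicate 1 and 61 in replicate 2, and also 486 piRNA genes, the most of any cluster bin, at the lowest G+C content of the cluster bins, 29.9%. The emptiest, chrIV:5200001-5300000 in the left cluster, held 17, 14 and 16 candidates in the same lists and 88 piRNA genes at 34.2% G+C. In this bin 37.1% of 31-mers occur more than once in the genome, against 11.6% over the clusters.

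**Figure D1:**
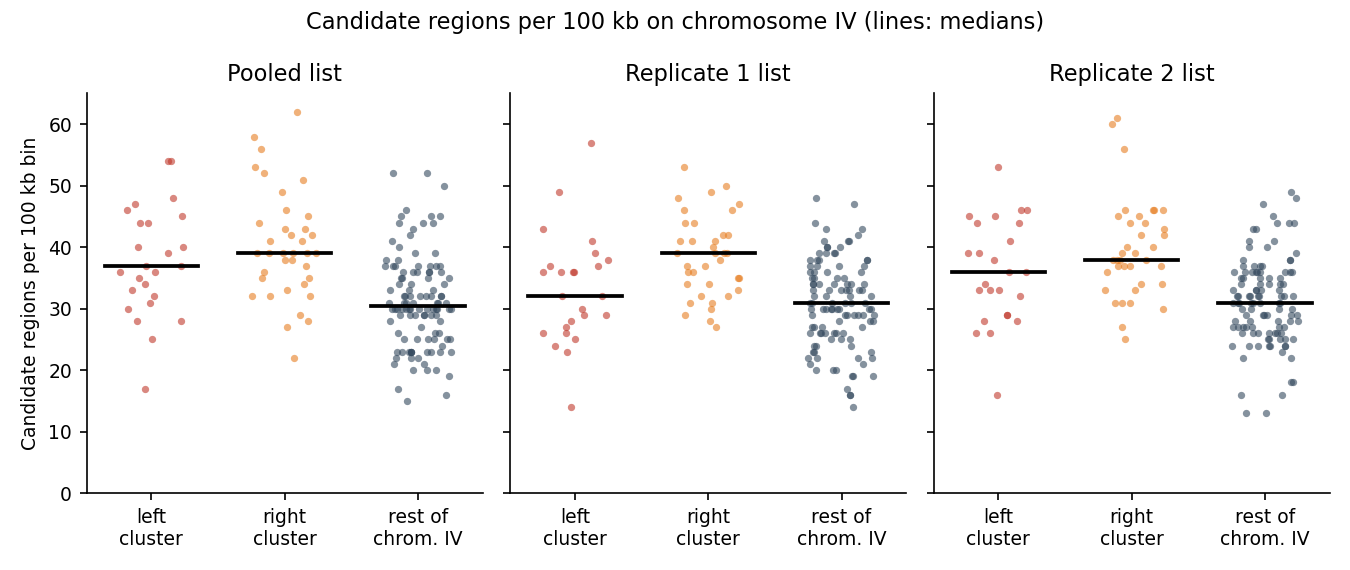
Candidate regions (y axis, regions per 100 kb bin) in the left cluster, the right cluster and the rest of chromosome IV, for the pooled list and each replicate's list; each point is 1 bin and black lines are medians. In the pooled list the medians were 37, 39 and 30.5; the groups overlap widely, and the left cluster's median in replicate 1 (32) was close to that of the rest (31).

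Bins with more piRNA genes held more candidates. Across the bins of the left cluster the pooled count had a Pearson correlation of 0.715 and a Spearman correlation of 0.776 with the number of piRNA genes (n = 25 bins), and across the right cluster 0.570 and 0.531 (n = 37). Base composition moved with both. The number of piRNA genes correlated with G+C at −0.758 (Pearson) and the number of candidates with G+C at −0.467 over the 62 cluster bins, and candidates correlated with G+C at −0.434 over the 112 bins of the rest, where piRNA genes are rare. Neighbouring bins share a library and a depth, so these are descriptions. The counts of both replicates' lists correlated at 0.676 over the cluster bins and 0.431 over those of the rest.

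The candidates of the clusters lay in sequence poorer in G+C than the clusters as a whole. Windows reaching 100 bp to each side of the summit had a median G+C content of 29.4% in the clusters and 32.3% on the rest of chromosome IV. Consecutive tiles of the same length, which cover each span completely, had medians of 31.8% in the clusters and 35.3% on the rest. The right cluster was the poorest, with 28.4% at its candidates and 30.8% in its tiles, against 30.8% and 33.3% in the left cluster. A run of at least 6 A or 6 T was found in 79.4% of cluster windows (tiles 69.8%) and in 74.7% of windows on the rest of the chromosome (tiles 60.7%). Candidates thus leaned towards A+T-rich sequence both inside and outside the clusters.

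Their position relative to protein-coding genes followed the same pattern. Summits outside every annotated gene (small RNA genes not counted) made up 52.3% of cluster candidates (interval 50.4 to 54.3; tiles 46.8%) and 38.9% of those on the rest (37.3 to 40.5; tiles 31.9%). Coding exons held 9.51% of cluster candidates (tiles 17.0%) and 14.3% of those on the rest (tiles 25.8%). Introns held 34.0% in the clusters (tiles 30.8%) and 39.6% on the rest (tiles 35.5%). Candidates were thus scarcer in coding exons and commoner between genes than the sequence itself, inside the clusters and outside. In the right cluster, where genes are sparse at 124.1 protein-coding genes per Mb, 59.5% of candidates were intergenic, and in the left, with 192.8 genes per Mb, 41.0%.

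Sequence that occurs more than once in the genome was almost free of candidates. Among tiles in which more than 50% of 31-mers recur elsewhere in the genome, 0.408% held a pooled summit in the clusters and 0.236% on the rest of chromosome IV, against 8.81% and 6.90% of the other tiles. Repeated 31-mers made up 11.6% of the clusters and 9.77% of the rest, so the clusters had slightly less unique sequence per Mb.

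Tiles of equal G+C content were then compared. The share of tiles with a pooled summit fell steeply with G+C. In the clusters it was 10.5% of tiles with 25 to 30% G+C and 1.34% of tiles over 45%, and on the rest of the chromosome 9.73% and 1.73%. The largest separation between the spans was at 30 to 35% G+C, where 9.11% of cluster tiles (8.48 to 9.79) and 7.61% of tiles on the rest (7.20 to 8.04) held a summit.

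**Figure D2:**
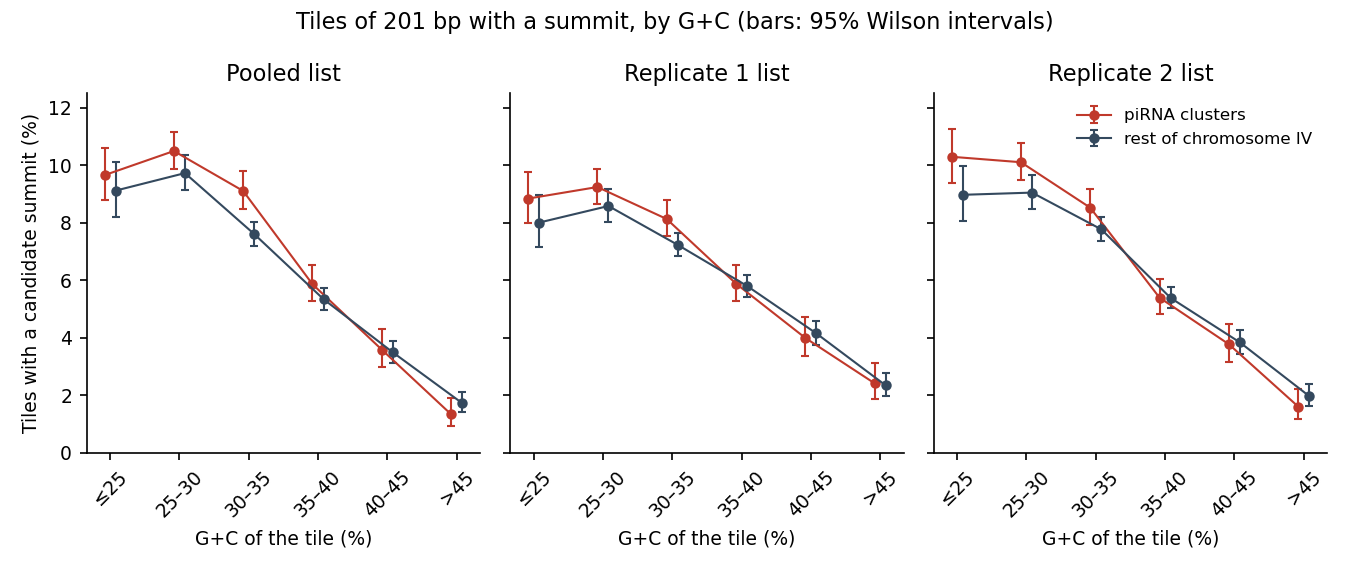
Share of tiles (as wide as the windows around summits) that hold a candidate summit (y axis, %) by the G+C content of the tile (x axis, %), in the piRNA clusters and the rest of chromosome IV, for the 3 lists; bars are 95% Wilson intervals. Both spans follow the same descent, from about 9 to 10% of tiles at low G+C in the pooled list to under 2% above 45%.

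When the shares of the rest of the chromosome in narrow G+C classes were applied to the cluster tiles, the clusters held 1.097 times the candidates this gave in the pooled list (1.05 to 1.14), 1.07 times in replicate 1 (1.03 to 1.12) and 1.08 times in replicate 2 (1.04 to 1.13). The ratios without regard to G+C were 1.25, 1.18 and 1.22. Matching location (intergenic, intron, coding exon, other exon) and repeat class as well gave 1.11, 1.08 and 1.08. The left cluster alone, at matched G+C, gave 1.096 in the pooled list (1.03 to 1.17), 1.01 in replicate 1 (0.938 to 1.08) and 1.06 in replicate 2 (0.989 to 1.13), so both replicates' intervals for the left cluster include 1. For the right cluster the 3 values were 1.097, 1.12 and 1.098, with no interval reaching 1. Differences of like size also occurred outside the clusters. The stretch between the clusters, treated in the same way against the chromosome's ends, gave 0.895, 0.933 and 0.956, and no interval of these reached 1 either. Whether other features of the sequence, open chromatin or copy number differ between the spans was not tested.

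Individual piRNA genes were next examined. A piRNA 5′ end lay within 100 bp of the summit for 988 of 2430 cluster candidates (40.7%, interval 38.7 to 42.6), against 29.8% of cluster tiles. In the left cluster it was 23.1% of candidates (tiles 17.0%) and in the right 51.7% (tiles 38.5%), against 1.301% of candidates (tiles 0.803%) on the rest of chromosome IV. Replicate 1's list gave 21.3% for the left cluster and 50.5% for the right, and replicate 2's 22.7% and 51.1%. Of the cluster candidates, 579 had 1 such 5′ end, 283 had 2 and 126 had 3 or more, with a maximum of 6. Seen from the genes, 1573 of the 14204 cluster piRNA genes (11.1%) had a pooled summit within 100 bp, and so did 10% of the 510 genes on the rest of the chromosome. The summit lay upstream of the nearest piRNA's 5′ end in 522 cases and at or downstream of it in 466.

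**Figure D3:**
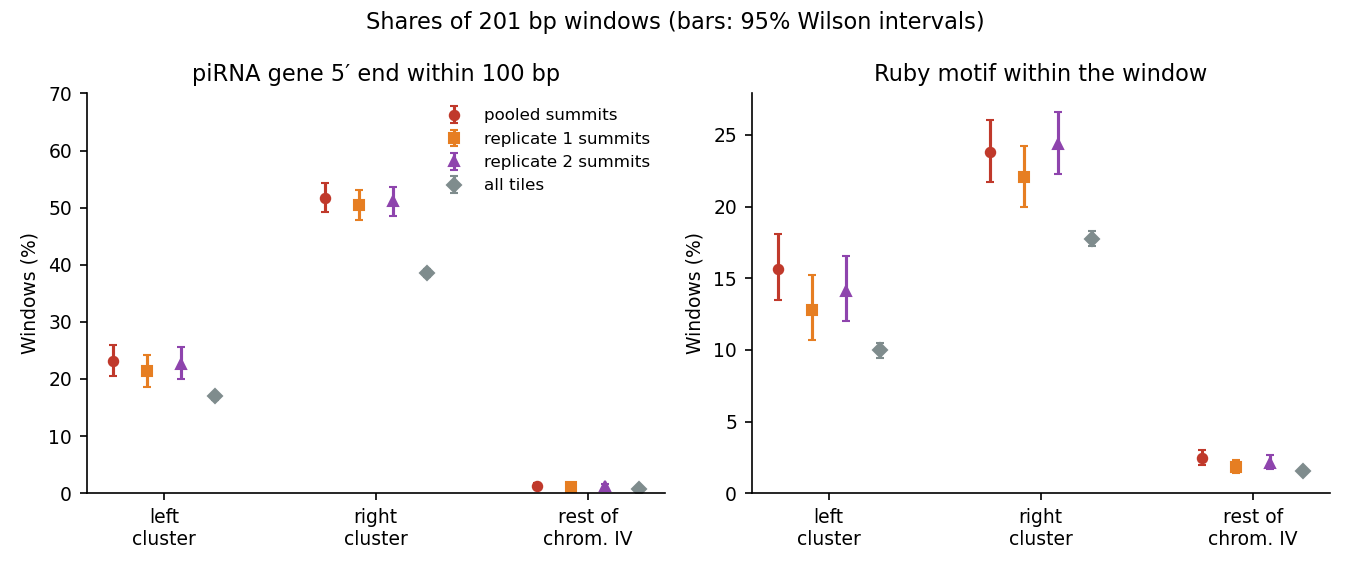
Share of windows reaching 100 bp to each side (y axis, %) with an annotated piRNA 5′ end within 100 bp of the centre, and with the Ruby motif on either strand, at the summits of the pooled list, of replicate 1 and of replicate 2 and in all tiles of the left cluster, the right cluster and the rest of chromosome IV; bars are 95% Wilson intervals. In both clusters and all 3 lists the summits lie above the tiles, for example 51.7% against 38.5% for piRNA genes in the right cluster.

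The piRNA genes were only slightly concentrated at the summit itself. In the right cluster there were 4.22 piRNA 5′ ends per kb within 100 bp of pooled summits and 3.58 per kb at 1 to 2 kb away, a ratio of 1.18 (1.17 in replicate 1 and 1.18 in replicate 2). In the left cluster the values were 1.63 and 1.52 per kb, a ratio of 1.07 (1.03 and 1.03), and the value at the summit was within the range of the surrounding intervals, 1.36 to 1.64. The average over the whole span was lower in both, at 3.08 per kb in the right cluster and 1.13 in the left. Part of the surplus of piRNA genes around candidates was thus already present 1 to 2 kb away, in both clusters.

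The excess of summits at piRNA genes was smaller once composition was matched. Within the clusters 10.6% of tiles with a piRNA 5′ end held a pooled summit and 6.73% of tiles without, a ratio of 1.57 (1.52 in replicate 1 and 1.60 in replicate 2). At equal G+C the ratio was 1.21 in the pooled list (1.13 to 1.29), 1.23 in replicate 1 (1.15 to 1.32) and 1.24 in replicate 2 (1.16 to 1.32). At equal G+C, location and repeat class it was 1.04 (0.978 to 1.11), 1.04 (0.975 to 1.11) and 1.06 (0.998 to 1.13), each with an interval that includes 1. piRNA tiles and other cluster tiles of like composition and location could therefore not be told apart by candidate density in any of the 3 lists. Set against the rest of the chromosome, cluster tiles without a piRNA gene had ratios that depended on the matching. At equal G+C alone they were 1.03 (0.980 to 1.09), 0.998 (0.946 to 1.05) and 1.00 (0.951 to 1.06), and with location and repeat class as well 1.101 (1.05 to 1.16), 1.06 (1.00 to 1.12) and 1.06 (1.01 to 1.12). Cluster tiles with a piRNA gene, set against the rest in the same way, had 1.209, 1.212 and 1.225 at equal G+C. With location and repeat class as well they had 1.12, 1.103 and 1.118, and none of their intervals reached 1.

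**Figure D4:**
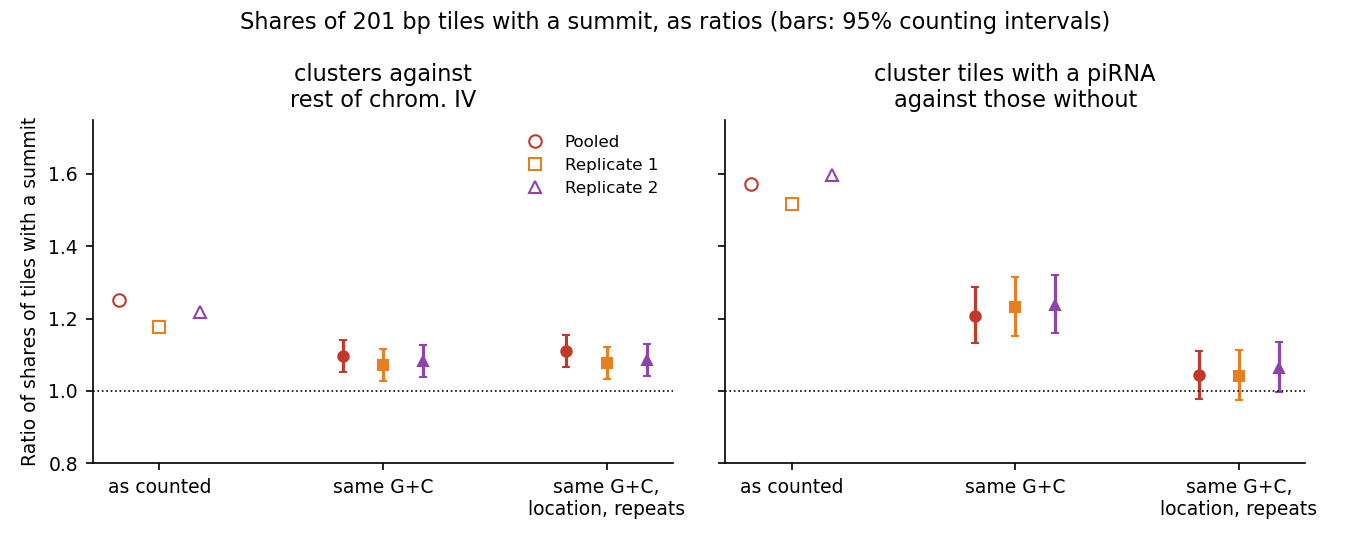
Ratio of the shares of tiles with a summit (y axis) for the clusters against the rest of chromosome IV (left panel) and for cluster tiles with a piRNA 5′ end against those without (right panel), as counted, at equal G+C, and at equal G+C, location and repeat class, in the pooled list and both replicates' lists; bars are 95% intervals of counting error and the dotted line marks 1. The piRNA ratio is 1.57 in the pooled list as counted and 1.04 in the strictest matching.

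The Ruby motif CTGTTTCA was sought on both strands, and it can share at most 1 base with TAATCC. It occurred within 100 bp of 502 cluster summits (20.7%, interval 19.1 to 22.3; tiles 14.6%) and of 2.43% of summits on the rest of chromosome IV (tiles 1.54%). In the right cluster it was 23.8% (tiles 17.8%) and in the left 15.6% (tiles 9.96%). Replicate 1's list gave 22.0% in the right and 12.8% in the left cluster, and replicate 2's 24.4% and 14.1%. Among the upper 10% of candidates by pooled signal (signal of at least 20.9), the share in the clusters was 16.2% (12.1 to 21.4). That interval includes both the share of all cluster candidates and that of the cluster tiles, 14.6%. At equal G+C, location and repeat class, cluster tiles with the motif held summits at 1.11 times the share of those without in the pooled list (1.01 to 1.21), at 1.06 times in replicate 1 (0.957 to 1.16) and at 1.08 times in replicate 2 (0.985 to 1.18). A match to these letters is a description of the sequence and shows no binding.

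TAATCC was not commoner at cluster candidates. It occurred in 6.42% of cluster windows (5.51 to 7.47; tiles 6.25%) and in 7.18% of windows on the rest of chromosome IV (6.38 to 8.08; tiles 7.07%). In the upper 10% by signal it was found in 24 of 240 cluster windows (10%, 6.81 to 14.4) and in 43 of 378 on the rest (11.4%, 8.56 to 14.97). The left cluster's upper 10% had it in 14 of 100 windows and the right cluster's in 10 of 140, with intervals of 8.53 to 22.1% and 3.93 to 12.7% that overlap.

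The clusters held more candidates but not stronger ones. Signal is the authors' signal value of each region, on a scale not given in the sources used here, and it is compared only within a list. The median was 14.4 in the clusters (quartiles 12.4 and 17.5) and 14.3 on the rest of chromosome IV (12.3 and 17.5) in the pooled list. It was 8.62 and 8.63 in replicate 1, and 8.85 and 8.75 in replicate 2, so the small difference had opposite signs in the 2 replicates. The upper 10% of the pooled list took in 240 cluster candidates (9.88%, 8.75 to 11.1) and 378 of the rest (10.7%, 9.71 to 11.8). Of the cluster candidates, 6 (0.247%, 0.113 to 0.538) were in the authors' list thresholded by the irreproducible discovery rate (IDR), against 13 on the rest of chromosome IV (0.368%) and 125 of all 30000 (0.417%). The clusters' share was near the background, within counting error.

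These 6 had pooled signals of 55.0 to 80.7, and the next cluster candidate had 37.8. The highest lay between divergent genes of the left cluster (chrIV:4749912-4750267), 150 bp upstream of Y17G9B.5, in the promoters of rpl-20 (a large-subunit ribosomal protein) and cyc-2.1 (cytochrome c). It had a signal of 50.2 in replicate 1 (rank 13) and 24.3 in replicate 2 (rank 76), and no piRNA gene lay within 17 kb, the nearest being 17634 bp away. The candidate 200 bp upstream of dld-1, which encodes dihydrolipoamide dehydrogenase, had 36.5 (rank 48) and 40.1 (rank 17). That 90 bp upstream of ntl-11, which encodes a subunit of the CCR4-NOT complex, had 44.4 (rank 22) and 21.3 (rank 154). These 3 regions were among the 200 highest of both replicates.

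The mir-52 locus held both of the remaining thresholded candidates of the right cluster. mir-52 belongs to a family of abundant microRNAs of embryos and larvae, and its annotated gene (chrIV:14034008-14034107, plus strand) ended 64 bp before the summit of the candidate at chrIV:14033993-14034348. This candidate had a pooled signal of 72.8, with 35.5 in replicate 1 (rank 50) and 43.2 in replicate 2 (rank 15), the highest replicate 2 signal in the clusters. The window printed above holds CTGTTTCA once on each strand, although the nearest annotated piRNA gene, 21ur-2841, lay 1030 bp away. The other candidate, upstream of mir-52 at chrIV:14033095-14033450, had a pooled signal of 55.0 and 53.7% G+C, the highest among the 20 strongest cluster candidates. Its replicates differed widely, with a signal of 42.1 in replicate 1 (rank 29) and 11.2 in replicate 2 (rank 6272). The nearest protein-coding 5′ end to both was that of Y37A1B.7, about 10 kb away (9609 and 10507 bp).

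The sixth, in the left cluster (chrIV:5054312-5054667), was intergenic, 1524 bp downstream of the 5′ end of msp-55, and lay in no protein-coding promoter. It contained TAATCC and had a pooled signal of 57.5. A counterpart was found in replicate 2's list alone. Its signal there was 20.6 (rank 192), and replicate 1's list had no summit within 100 bp. The missing match does not show that replicate 1 lacked signal in this region. msp-55 belongs to the major sperm protein family, whose genes are transcribed in developing sperm.

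The 20 strongest cluster candidates, 11 in the left and 9 in the right cluster, lay in promoters more often and at piRNA genes less often than cluster candidates as a whole, as a description of a few regions with no test. Of them 12 (60%, interval 38.7 to 78.1) lay in the promoter of a protein-coding gene (2000 bp upstream to 500 bp downstream of its 5′ end), against 30.04% of all cluster candidates (tiles 31.2%). Of the 20, 15 were intergenic, and their median G+C content was 36.8%, against 29.4% for all cluster candidates. A piRNA 5′ end lay within 100 bp of 2 (10%, 2.79 to 30.1), against 40.7% of all cluster candidates, and more than 500 bp from 12. In the upper 10% by pooled signal it lay within 100 bp of 86 of 240 cluster candidates (35.83%, interval 30.03 to 42.08). That interval includes the share of all cluster candidates, so a lower share at piRNA genes was not shown for this larger set. The 20 were chosen by their signal, so their signals are no finding, while location and composition did not enter the choice.

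The 2 with a piRNA gene were those shown first above. The candidate 769 bp upstream of semo-1, with 21ur-13201 at its summit, had signals of 17.6 in replicate 1 (rank 685) and 21.1 in replicate 2 (rank 165). The candidate in an intron of soc-2, a gene of Ras signalling that encodes a leucine-rich repeat protein, with 21ur-9509, had 21.7 (rank 266) and 15.8 (rank 1105). Both had a counterpart in each replicate's list. Of the 8 next candidates with a piRNA gene, 4 had a counterpart in both lists, among them that with 21ur-12533 (ranks 729 in replicate 1 and 6418 in replicate 2) and that with 21ur-2949 (6404 and 333). The candidate with 21ur-14537 had none in replicate 1 and rank 606 in replicate 2, and that with 21ur-2904 had a counterpart in neither list.

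The remaining named candidates of the 20 were led by single replicates in several cases. In an intron of unc-5, which encodes a netrin receptor for axon guidance, the window carried TAATCC and the signal was 18.7 in replicate 1 (rank 495) and 9.70 in replicate 2 (rank 10702). In the promoter shared by perm-3 and swsn-6 it was 16.6 (rank 950) and 19.5 (rank 283). In a coding exon of elo-5, a fatty acid elongase gene, it was 6.40 (rank 28727) and 18 (rank 477). In a coding exon of fem-1, a gene of sex determination, it was 18.5 (rank 523) and 14.0 (rank 2229). Of the 20, 17 had a counterpart in both replicates' lists and 6 were in the top 1000 of both.

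Few cluster candidates were found in both replicates, and the share was similar outside the clusters. Of the 2430 pooled cluster candidates, 363 (14.9%, 13.6 to 16.4) had a summit within 100 bp in both replicates' lists, against 512 of 3537 (14.5%, 13.4 to 15.7) on the rest of chromosome IV. In the clusters 780 matched replicate 1 alone, 812 replicate 2 alone and 475 neither. In the upper 10% by signal the share matched in both was 52.9% (46.6 to 59.1) in the clusters and 53.4% (48.4 to 58.4) on the rest. Ranks of the matched candidates were nearly unrelated between replicates, with a Spearman correlation of 0.106 in the clusters (n = 363 regions) and 0.0583 on the rest (n = 512). Only candidates of the pooled list with a match in both replicates' lists entered. The pooled list is drawn from both replicates, so this selection can itself lower the correlation. The values therefore do not measure how far the replicates agree over all regions. Of the matched candidates, 6 ranked in the top 1000 of both replicates in the clusters and 6 on the rest. The correlation between replicates over 100 kb bins, given above, is one of candidate counts. It measures something else than ranks of single candidates, so the sizes of these correlations are not compared.

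**Figure D5:**
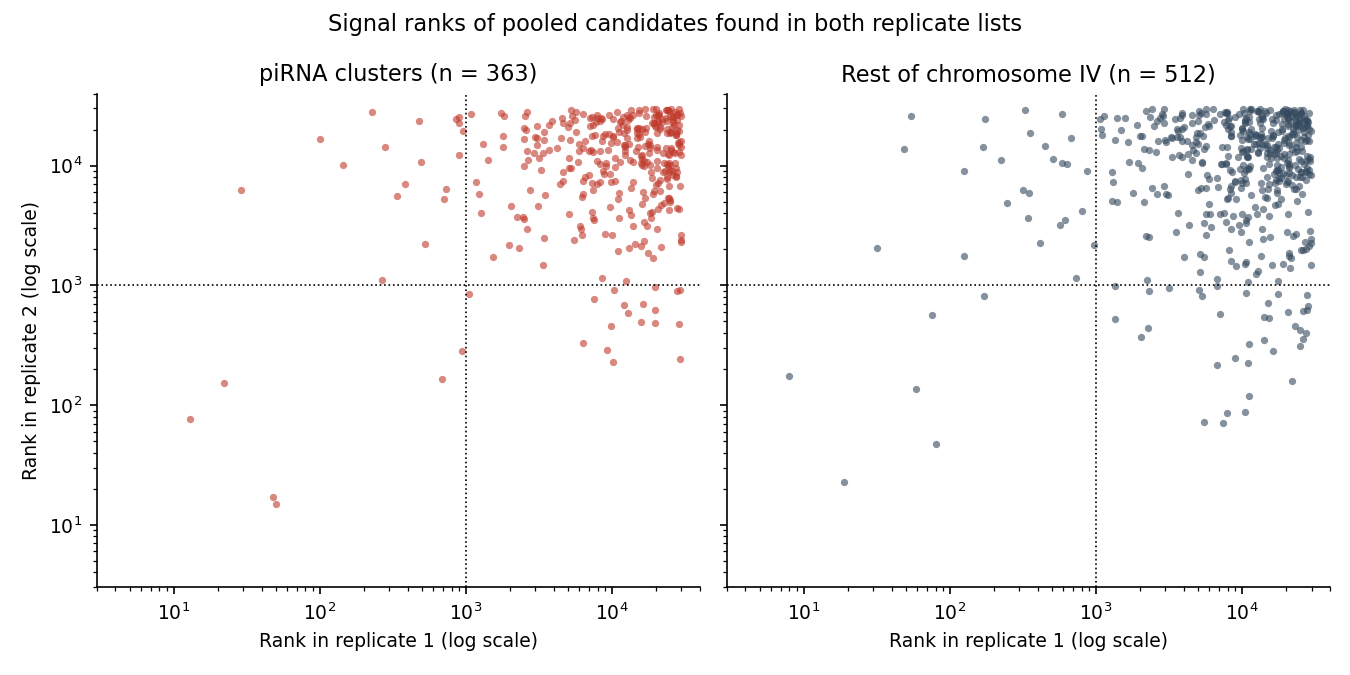
Signal rank in replicate 2 (y axis) against rank in replicate 1 (x axis), both on log scales with rank 1 the strongest, for pooled candidates with a counterpart in both lists, in the piRNA clusters (left, n = 363) and on the rest of chromosome IV (right, n = 512); dotted lines mark rank 1000. In each panel 6 candidates fall in the lower left corner, where both ranks are under 1000. The bulk lies at high ranks in both lists, with little relation between the ranks of these selected candidates.

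Gaps between neighbouring candidates were shorter in the clusters, with a median of 1639 bp, against 1982.5 bp on the rest of chromosome IV. Replicate 1's list gave 1760 against 2062.5 bp and replicate 2's 1706 against 2010 bp. Gaps of more than 10000 bp numbered 58 in the clusters (9.36 per Mb, taking up 14.99% of the span) and 170 on the rest (15.1 per Mb, 24.6%). The right cluster had 1 gap of more than 20000 bp in 3.7 Mb and the left cluster 7 in 2.5 Mb.

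The widest gap of the clusters, 57202 bp, ran from chrIV:6679070-6736272 in the left cluster. It held no protein-coding gene, 2 piRNA genes (64.4 would correspond to the average of the left cluster) and 1 candidate in each replicate's list. There 76.7% of 31-mers recurred elsewhere in the genome and 83.6% of bases were soft-masked in RefSeq. The gap of 36236 bp at chrIV:5230516-5266752, with msp-19 and ttbk-2.1, was likewise repeated (81.1% of 31-mers). That of 40841 bp at chrIV:5972926-6013767 was not, with 6.79% repeated 31-mers. It spanned unc-44, the large ankyrin gene of neurons, at 40.9% G+C, and held 33 piRNA genes and 3 candidates in each replicate's list. For comparison, the widest gap between the clusters, 51683 bp, spanned unc-30 itself (chrIV:13091739-13143422), with 0 candidates in replicate 1 and 3 in replicate 2. It held 15 protein-coding genes, and 30.2% of its 31-mers were repeated, against 9.77% on the rest of chromosome IV. The strain's transgene also carries unc-30 sequence, and whether the transgene or the repeats affected the gap was not tested.

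Protein-coding genes of the clusters, where candidates are denser, had promoter candidates slightly more often than those outside. Counted per candidate the order was the reverse. Promoters held 30.04% of cluster candidates (tiles 31.2%) and 43.1% of those on the rest of chromosome IV (tiles 40.5%). Of 941 genes, 590 (62.7%, 59.6 to 65.7) had a pooled candidate in their promoter, against 1358 of 2340 (58.03%, 56.02 to 60.02) on the rest of chromosome IV. All 5 ribosomal protein genes of the clusters had one. rpl-20 (signal 80.7), rps-18 (29.7) and rpl-29 (28.0) were the highest, while rps-25 (14.2) and rpl-18 (13.7) were near the median of the list. Chemoreceptor genes had one in 64 of 82 cases (78.0%, 67.9 to 85.6), with a median best signal of 15.4 and a maximum of 26.1. Genes of the sperm families had few, with 2 of 9 major sperm protein genes and 1 of 8 nematode-specific sperm genes. Some of the former lie in repeated sequence, where candidates were rare. The gap with msp-19 had 81.1% repeated 31-mers, and that with msp-55, msp-57 and msp-53 had 45.9%. Whether repeats account for the low counts was not tested. Of the other families, 5 of 9 C-type lectin genes, 4 of 5 nuclear receptor genes, 4 of 6 collagen genes and 1 of 7 F-box genes had a promoter candidate, and no histone gene lies in the clusters.

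The genes whose products make or use piRNAs lie mostly on other chromosomes, and no enrichment of candidates in their promoters was detectable. Of 32 listed genes 29 were matched in the annotation, and 14 of them (48.3%, 31.4 to 65.6) had a pooled promoter candidate, against 11249 of 19973 protein-coding genes (56.3%). Of the matched genes, 2 had a candidate in the top 1000. simr-1, a Tudor-domain protein of germline small RNA pathways, had signal 35.9 (rank 169, with ranks of 505 in replicate 1 and 891 in replicate 2). attf-6, an AT-hook gene, had 31.3 (rank 322, with 2295 and 7374). tofu-1, needed for piRNA production, followed with 22.8 (rank 1814, with 462 and 14068). The core transcription factors had low values or none. prde-1 had signal 13.6 (rank 17097), and snpc-4 had no pooled candidate. prg-1, the Piwi gene, had 14.7 (rank 13557). pgl-1, a P-granule gene and the only matched member inside a cluster, had 12.9 (rank 19790). As a reference for UNC-30, its target unc-25 had 23.1 (rank 1707), with rank 468 in replicate 1 and no promoter candidate in replicate 2. unc-47 and unc-30 had no promoter candidate, and for unc-30 the sequence carried by the transgene was not taken into account.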

How the data were processed

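The authors deposited ChIP-seq candidate lists (peaks together with background) for each of 2 replicates and for both together, and a list thresholded by IDR, in builds ce11 and ce10, per the file lists with the samples. The signal of each region is the authors' signal value in the deposited lists, and a −log10 q-value is given beside it. The aligner, caller, control, signal scale and IDR cut-off were not given in the sources used here, and the depth of the libraries is unknown. Each list holds 30000 candidates, so a candidate is not a called peak, and density in one place depends on the rest of the genome.

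Summits were placed in ce11 (WBcel235) with RefSeq sequence and Ensembl release 115 annotation. Chromosome IV was cut into 87033 tiles of 201 bp, and G+C was matched in classes of 2.5 percentage points. Repeats were 31-mers found more than once in the genome. Shares have Wilson intervals and densities exact Poisson intervals at 95%. Expected counts were treated as fixed. Python 3.11.15, numpy 2.4.6, pandas 2.3.3 and scipy 1.17.1 were used, and the functions were tested on simulated data.

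Named regions were the 20 cluster candidates with the highest signal, all thresholded ones, the highest 10 with a piRNA 5′ end within 100 bp, the highest 5 with each motif, and the listed pathway genes. Sequences were printed for a few of these. The members, lists and matchings were chosen with earlier results of these data known. Each list's own order by signal gave the ranks. Nothing says how far the biological replicates were separate cultures.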

Additional observations from a re-analysis of the deposited data

How the results depend on the processing

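No paired analysis was possible because there was 1 group. Over each replicate's own list in place of the pooled one, the density ratio ran from 1.18 to 1.22, the median signal difference from −0.0088 to 0.0954, the median gap from 1706 to 1760 bp, the median G+C from 29.4 to 29.9%, the share with a piRNA from 39.7 to 40.3%, with CTGTTTCA from 18.6 to 20.5% and with TAATCC from 5.83 to 5.90%. The upper 15000 pooled candidates gave a density ratio of 1.29, a median signal difference of −0.0547, 25.4% matched in both replicates, a median gap of 3095.5 bp, 29.9% G+C, 41.4% with a piRNA, 6.60% with TAATCC and 54.6% intergenic. The left cluster alone gave a density ratio of 1.201, a signal difference of 0.0379, 30.8% G+C, 23.1% with a piRNA, 15.6% with CTGTTTCA, 7.77% with TAATCC and 41.0% intergenic. The right cluster alone gave a density ratio of 1.29, 28.4% G+C, 51.7%, 23.8%, 5.57% and 59.5% for the same shares. Matching at 50 or 200 bp gave 8.64% and 24.4% matched in both. Windows of 50 bp to each side gave 28.7% G+C, 23.0% with a piRNA, 10.7% with CTGTTTCA and 3.13% with TAATCC, and of 200 bp 59.8%, 36.0% and 11.2% for the shares, as wider windows hold more sequence. At equal G+C, chosen after seeing the data, the density ratio was 1.097, and with location and repeat class 1.11. The other 22 alternatives, among them the ce10 lists and the span between the clusters, moved their values by less than the spread between the replicates' lists or the counting interval. The density ratio stayed above 1 under each alternative run, while the median signal difference changed sign and supports no direction. The unknown depth and the fixed length of the lists limit all densities to relative statements.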
